A study of Drosophila melanogaster with 2 samples.

Results

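Isolated autosomal Sin3A peaks are the sites on the chromosome arms 2L, 2R, 3L and 3R of Drosophila melanogaster where Sin3A was found with no second Sin3A site nearby. They were chosen by the measured positions of the peaks: a peak was counted as isolated when no other peak midpoint lay within 10 kb of its own midpoint on the same arm, on either side. Of the 3277 peaks on these arms, 655 met this rule, or 19.99% (95% exact binomial interval 18.6 to 21.4), out of 4046 peaks in the complete list. The remaining 2622 autosomal peaks, each with at least 1 other midpoint within 10 kb, are called the other peaks here. The rule used positions only, so how far apart these peaks lie and how many there are follow from it and are given as description.

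The peaks come from 1 chromatin immunoprecipitation sample (ChIP-seq) of whole embryos aged 0 to 12 h, with replicates 1 and 2 joined, made with an antibody against Sin3A. The flies were of the iso1 strain (y; bw cn sp) or transgenic, per the labels, which do not say which for this sample, and were not treated. An input sample of the same stage, chromatin taken before immunoprecipitation, belongs to the series and was not analysed here. Each peak has a position on the BDGP5 build and a score, the authors' own value, whose scale the file does not name and which starts at 50.05. With both replicates in a single list no value has a replicate error, no difference was tested, the read depth is unknown, and intervals cover counting error over peaks only. In whole embryos, binding in fewer cells and weaker binding in each cell cannot be told apart.

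Sin3A is the scaffold of a corepressor complex. Its paired amphipathic helix domains hold sequence-specific repressors and their partners, and the complex carries the histone deacetylase Rpd3, also called HDAC1, which removes acetyl groups from histone tails. In flies the protein is essential for development and works with SMRTER, a corepressor of the ecdysone receptor, the receptor of the steroid hormone that times moulting.

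Isolated peaks were found in similar proportion on each autosomal arm. Arm 3R held 189 isolated peaks among 991 (19.1%, interval 16.7 to 21.7), 2R held 171 among 811 (21.1%, interval 18.3 to 24.1), 3L held 167 among 775 (21.5%, interval 18.7 to 24.6) and 2L held 128 among 700 (18.3%, interval 15.5 to 21.4). The 4 intervals overlap. Together the isolated peaks covered 732 kb, against 2931 kb covered by the other peaks. Their distance to the nearest midpoint had a median of 19.9 kb (quartiles 13.6 and 36.0 kb, range 10.019 to 322 kb). Of the 655, 329 lay at most 20 kb from their nearest peak, 101 lay over 50 kb away and 20 lay over 100 kb away. The first or last peak of an arm, which has a neighbour on 1 side only, accounted for 6 of the members.

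Isolated peaks had higher scores than the other peaks, at nearly the same width. The median score was 331 for isolated peaks (quartiles 150 and 621, range 50.44 to 2327.14) and 253 for the other peaks (quartiles 122 and 506, range 50.05 to 2483.68), beside 265 for all autosomal peaks. The quartiles of both sets overlap widely. Of the isolated peaks, 380 of 655, or 58.0% (interval 54.1 to 61.8), scored above the median of the other peaks, as did 51.6% of all autosomal peaks. The median width was 1017 bp for isolated peaks (quartiles 746 and 1406 bp) and 1008 bp for the other peaks (quartiles 770 and 1385 bp). An isolated peak was wider than the median of the other peaks in 336 of 655 cases, or 51.3% (interval 47.4 to 55.2), beside 50.2% of all autosomal peaks. Both ends of the width range held slightly more isolated peaks: 76 of 655 (11.6%, interval 9.25 to 14.3) lay in the widest decile, against 252 of 2622 other peaks (9.61%, interval 8.51 to 10.8), and 77 (11.8%, interval 9.39 to 14.5) in the narrowest, against 251 other peaks (9.57%, interval 8.47 to 10.8), each decile holding 10.01% of all autosomal peaks. These intervals overlap.

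The size of the score difference depended on which peaks the isolated ones were set against. The difference in medians was 78.05 over all other peaks. It was 22.17 when only other peaks with no midpoint within 2 kb were used, an added comparison chosen with the values in view, with medians of 331 for isolated peaks and 309 for those peaks. In the same comparison isolated peaks were the narrower set, with a median of 1017 bp against 1117 bp. When only peaks scoring at least 269.74, the median of the complete list, were kept before the rule was applied, the medians were 546 for 788 isolated peaks and 531 for 827 other peaks. In both comparisons the share of isolated peaks scoring above the median of the peaks they were set against had an interval that included 50%, at 51.9% (48.0 to 55.8) with the 2 kb limit and 52.4% (48.9 to 55.9) with the minimum score.

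The median score of isolated peaks was the higher of the pair on 4 of 4 arms. On 2R it was 331 for isolated peaks and 241 for the other peaks, a difference of 89.9. On 3R the medians were 343 for isolated peaks and 260 for the other peaks, a difference of 82.95. On 2L they were 294 for isolated peaks and 232 for the other peaks, and on 3L, where the difference was smallest at 48.2, 315 for isolated peaks and 267 for the other peaks. Width had no common direction. Isolated peaks had the wider median on 2L (996.5 bp against 952 bp) and 2R (1026 bp against 1007 bp) and the narrower one on 3L (958 bp against 973.5 bp) and 3R (1054 bp against 1060.5 bp).

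**Figure D1:**
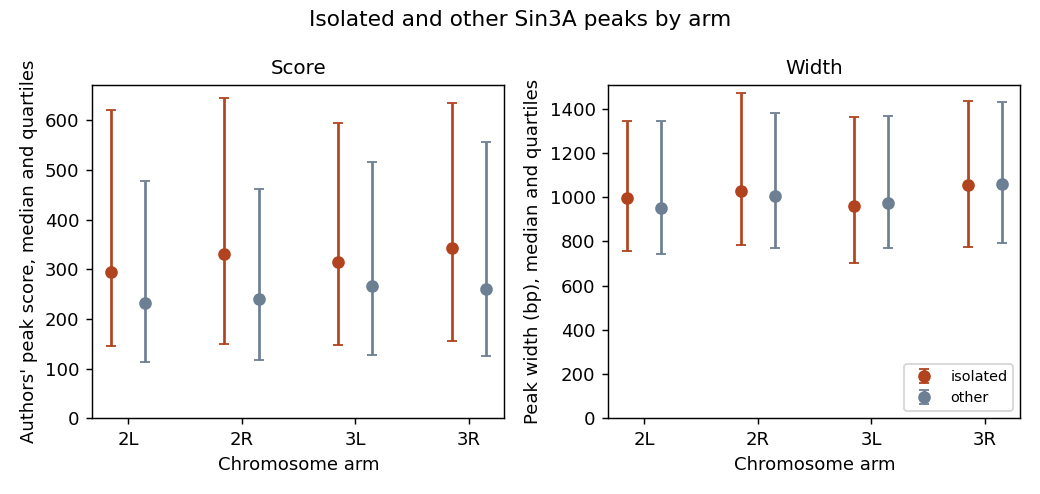
Score (left, the authors' score) and width (right, in bp) of isolated peaks, drawn first on each arm, and of the other peaks on 2L, 2R, 3L and 3R. Points are medians and bars run from the lower to the upper quartile; the score medians of isolated peaks lie above those of the other peaks on each arm (331 and 241 on 2R, for example), while the quartiles overlap and the widths nearly coincide.

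Against all other peaks, the excess lay at the strong end of the list. The strongest decile of autosomal peaks, with scores of 865.41 or more, held 98 of 655 isolated peaks, or 15.0% (interval 12.3 to 17.9). It held 230 of 2622 other peaks, or 8.77% (interval 7.72 to 9.92), where by construction 10.01% of all autosomal peaks belong. The other peaks 5 to 10 kb from their nearest midpoint reached nearly the same share as isolated peaks, at 97 of 649 (14.9%, interval 12.3 to 17.9). The share was lower among closer peaks: 0 of 278 within 1 kb and 30 of 574 (5.23%) at 1 to 2 kb. At 2 to 5 kb it was 103 of 1121 (9.19%). Arm 2R showed the widest gap, with 31 of 171 isolated peaks in the strongest decile (18.1%, interval 12.7 to 24.7) and 36 of 640 other peaks (5.62%, interval 3.97 to 7.70). On 3L the shares were 15.6% of isolated peaks and 10.4% of other peaks. On 3R they were 14.8% of isolated peaks and 10.97% of other peaks, and on 2L 10.2% of isolated peaks and 7.52% of other peaks. The intervals of isolated and other peaks overlap on 2L, 3L and 3R and do not on 2R. Whether the arms differ was not tested. At the weak end the sets were close: 63 isolated peaks, or 9.62% (interval 7.47 to 12.1), and 265 other peaks, or 10.1% (interval 8.98 to 11.3), fell in the weakest decile, again beside 10.01% of all.

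Seen from the score, the share of isolated peaks ran from 14.6% to 20.1% in the 7 weaker deciles and from 22.9% to 29.9% in the 3 stronger ones. It was 19.2% in the weakest decile, 14.6% (interval 10.99 to 18.9) in the second and 29.9% (interval 24.97 to 35.2) in the strongest, beside 19.99% over all. Higher up, 32 of the 100 strongest autosomal peaks were isolated, 65 of the strongest 200, and 7 of the strongest 20.

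**Figure D2:**
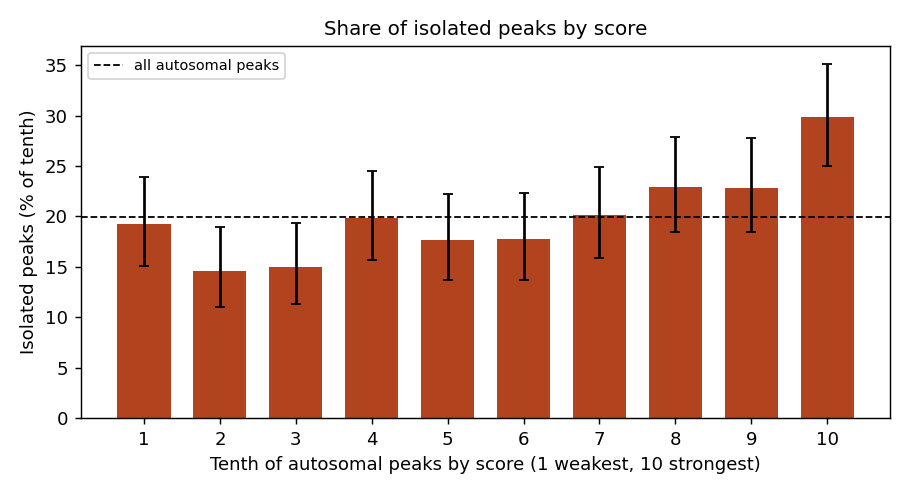
Share of isolated peaks (vertical axis, in percent) in each decile of the autosomal peaks ordered by score (horizontal axis, weakest to strongest). Error bars are 95% exact binomial intervals over peaks and the dashed line is the share over all autosomal peaks, 19.99%; the strongest decile reaches 29.9% and the second decile has 14.6%.

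At equal score, isolated peaks were the narrower ones. The autosomal peaks were divided into 10 equal groups by score, and in 9 of the 10 the median width of isolated peaks was below that of the other peaks. The differences among those 9 ran from -185 bp in the sixth group (937 bp in isolated peaks against 1122 bp in other peaks) to -14 bp in the fifth. In the strongest group the order turned, with 1644 bp in isolated peaks and 1615.5 bp in other peaks. Over all groups, 274 of 655 isolated peaks, or 41.8% (interval 38.0 to 45.7), were wider than the median of the other peaks of their group, whereas 49.9% of the other peaks and 48.3% of all autosomal peaks were. By arm, the share among isolated peaks was 41.4% on 2L, 35.9% on 3L and 38.6% on 3R, against 46.2%, 46.7% and 53.1% of the other peaks of those arms. On 2R it was 51.5% of isolated peaks (interval 43.7 to 59.2) against 52.2% of other peaks (interval 48.2 to 56.1), so on that arm the 2 shares nearly coincided.

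The same relation read the other way put isolated peaks above their equals in width. In 9 of 10 equal groups by width the isolated peaks had the higher median score. Among the widest, of 1738 bp or more, the medians were 935 for isolated peaks and 722 for the other peaks. Among the narrowest, of 634 bp or less, the order was reversed, at 74.01 for isolated peaks and 83.78 for the other peaks. Across peaks, score and width were correlated with Spearman's rho of 0.758 over the 655 isolated peaks and 0.686 over the 2622 other peaks, as a description, since both measures come from the same reads. Wide peaks of low score, in the widest decile with a score at or below the autosomal median of 265, were rare in both sets. They made up 2 of 655 isolated peaks, or 0.305% (interval 0.037 to 1.10). Among the other peaks they were 18 of 2622, or 0.686% (interval 0.407 to 1.08), beside 0.610% of all autosomal peaks. The intervals overlap. The 2 isolated ones, picked out after their values were seen, lay at chr2R:10027281-10029401 (2121 bp, score 250.45) and chr3R:57017-59583 (2567 bp, score 262.22).

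**Figure D3:**
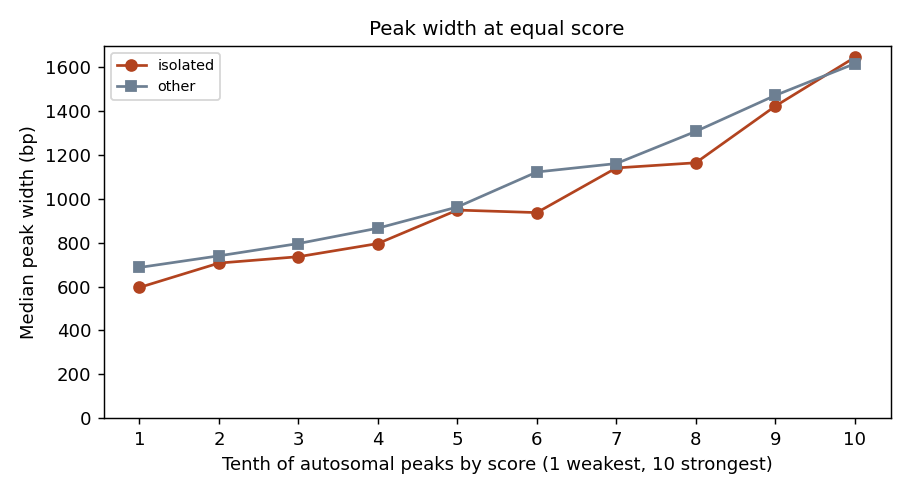
Median width in bp (vertical axis) of isolated peaks and of the other peaks in each decile of the autosomal peaks ordered by score (horizontal axis). The line of isolated peaks runs below that of the other peaks in 9 deciles, by 185 bp in the sixth, and above it in the strongest decile (1644 bp against 1615.5 bp).

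Distance beyond the threshold did not go with ever higher scores. Among the other peaks the median score was 132 where the nearest midpoint lay within 1 kb, 211 between 1 and 2 kb, 290 between 2 and 5 kb and 349 between 5 and 10 kb. Among isolated peaks it was 279 between 10 and 15 kb (211 peaks), 377 between 15 and 20 kb (118 peaks), 370 between 20 and 30 kb (123 peaks), 342 between 30 and 50 kb (102 peaks) and 223 beyond 50 kb (101 peaks). The other peaks at 5 to 10 kb thus scored about as high as the isolated set as a whole, and the lowest medians stood at the shortest distances. As a description across peaks, Spearman's rho between score and distance was -0.0686 over the isolated peaks and 0.254 over the other peaks. For width, rho was -0.157 over the isolated peaks and 0.275 over the other peaks. Peaks do not overlap, so midpoints close together leave room for narrow peaks only. Within 1 kb the median width was 735 bp and the largest 1173 bp. Width goes with score, so the rise of both measures with distance among the other peaks is in part set by construction.

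**Figure D4:**
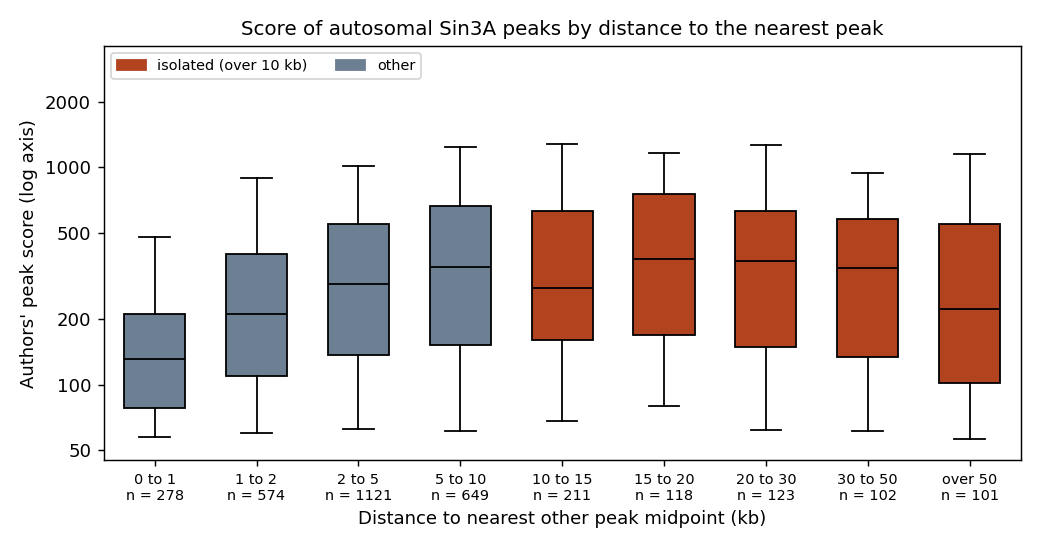
Score of autosomal peaks (vertical axis, logarithmic) by distance to the nearest other midpoint in kb (horizontal axis), with the isolated peaks in the 5 classes over 10 kb. Boxes run between the quartiles with a line at the median and whiskers reach the 5th and 95th percentiles; the medians climb to 349 between 5 and 10 kb, stand at 377 between 15 and 20 kb and are 223 over 50 kb.

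By their medians, the most remote sites were weak and narrow. The 101 isolated peaks with more than 50 kb free on both sides had a median score of 223 and a median width of 871 bp, beside 265 and 1010 bp for all autosomal peaks. Of these 101, 15 (14.9%) fell in the weakest decile by score, against 14 of the 211 (6.64%) at 10 to 15 kb. No interval was computed for these shares, and whether they differ was not tested. In the strongest decile were 11 of the 101 (10.9%, interval 5.56 to 18.7) and 38 of the 211 (18.0%, interval 13.1 to 23.9). These intervals overlap. Each decile holds 10.01% of all autosomal peaks, so the share of the 101 in the strongest decile was near that of all. The low median beyond 50 kb was seen on 2R (147), 3L (199.585) and 3R (212) but not on 2L (335), with 20 to 32 peaks per arm. The 20 peaks over 100 kb from any other had a median score of 171 and a median width of 778 bp.

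The 10 most remote peaks can be named. The first, at chr3L:23573665-23574023, was the last peak of its arm, 322 kb from its neighbour, with a score of 65.35 and a width of 359 bp. On 2R, chr2R:1241538-1242358 stood 299 kb from its nearest peak (score 130.55) and chr2R:617345-617984 stood 185 kb away (score 50.85), on either side of a gap of 624 kb. On 3L, chr3L:10217792-10218514 had 238 kb free on its nearer side (score 89.56). On 2L the 3 most remote were chr2L:15498773-15499936 at 228 kb (score 620.45), chr2L:14094530-14095053 at 191 kb (score 152.60) and chr2L:17963060-17963794 at 174 kb (score 401.92). The remaining 3 were chr3L:1033896-1035941 at 163 kb (score 611.13), chr3R:1833092-1834551 at 146 kb (score 434.98) and chr2R:13153192-13153685 at 141 kb (score 51.69). Only 4 of the 10 scored above the autosomal median of 265, and 3 were wider than the autosomal median of 1010 bp.

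A few remote sites were among the strongest autosomal peaks. Among the 20 peaks over 100 kb from any other, 3 belonged to the strongest decile. This decile holds 15.0% of all isolated peaks and 10.01% of all autosomal peaks, so nothing is read from that count. The peak chr3L:11995347-11996498 scored 1769.25, rank 16 of all autosomal peaks, with its nearest neighbour 113 kb away and a width of 1152 bp. The peak chr3L:14402356-14404248 scored 1670.15, rank 25, with 128 kb free. The third, chr2R:3165078-3166698, scored 1294.10, rank 83, with 109 kb free, and is named because its values were seen.

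The strongest isolated peaks lay on each arm, 6 on 3L, 6 on 3R, 5 on 2R and 3 on 2L among the top 20. Their scores ran from 1420 to 2327 and their widths from 1152 to 2638 bp, and each was wider than the autosomal median. The highest isolated score, 2327.14, belonged to chr3L:871511-873155, the third highest of all autosomal peaks, whose neighbours lay 21.0 kb to its left and 163 kb to its right. It was followed by chr2L:5324451-5326946 (score 2080.88, 2496 bp, 46.5 kb from its nearest peak) and chr2R:5579303-5581414 (score 2047.99, 2112 bp, 19.9 kb). The peak chr3L:9891091-9892853 (score 2037.86) lay just past the limit, 10.452 kb from its neighbour, as did chr2L:6647283-6649893 (score 1701.11) at 10.201 kb. Also among the first 10 were chr2R:3954857-3956854 (score 1889.42), chr3R:24713016-24715453 (score 1675.13) and chr2R:3803504-3805119 (score 1665.43). The number of peaks within 50 kb of these 20 ranged from 0 to 10 with a median of 4.

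The widest isolated peak, 2900 bp at chr2R:17028877-17031776, ranked 62 by score among the 655 (1059.91). The next were chr3R:11874853-11877749 (2897 bp, score 1069.03), chr3L:8712355-8715207 (2853 bp, score 577.35) and chr2L:8082229-8085000 (2772 bp, score 1192.65). The fifth, chr3L:1515851-1518488 (2638 bp, score 1610.75), was also among the 20 strongest. The 5 narrowest measured 306 to 331 bp and scored from 53.85 to 171.61, the narrowest being chr2L:20148364-20148669. The 5 weakest scored from 50.44 to 51.69, at the floor of the list, and 3 of them lay on 2R, with the weakest at chr2R:404261-404625.

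At the threshold itself the values were mixed. The 5 members nearest to the limit had a neighbour at 10.019 to 10.0565 kb and scored from 135.96 to 356.84. The 5 peaks just short of it, at 9.946 to 9.9875 kb, scored from 215.21 to 1010.02, and 2 of them were neighbours of each other.

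The median score fell as the number of neighbours within 10 kb rose. Peaks do not overlap, so more neighbours leave less room for wide peaks, and width goes with score. This order may thus follow in part by construction. The median was 331 with 0 neighbours (655 peaks), 305 with 1 (964 peaks), 248 with 2 (814 peaks), 229 with 3 (572 peaks) and 180 with 4 or more (272 peaks). The share in the strongest decile was 15.0% with 0 neighbours, 11.1% with 1, 8.48% with 2, 6.12% with 3 and 6.99% with 4 or more. Of the isolated peaks, 412 of 655, or 62.9% (interval 59.1 to 66.6), scored above the median of the peaks with 3 or more neighbours, as did 57.6% of all autosomal peaks.

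An isolated peak scored less than the strongest peak of a run. Other peaks were grouped into runs in which each midpoint lay within 10 kb of the next, which gave 347 runs of 2, 183 runs of 3 and 259 runs of 4 or more. Against the median of 331 for isolated peaks, the median score of the strongest member was 494 in runs of 2, 567 in runs of 3 and 672 in runs of 4 or more. The strongest of several values is high by construction, so these medians are no like-for-like comparison, and the same holds for the shares of runs given next. The median of the weakest member was 160, 104 and 76.3 in runs of 2, 3 and 4 or more. For the median score within a run, the median over runs was 338, 239 and 237 in the same order. The isolated peaks, at 331, thus lay slightly below this value in runs of 2 and above it in longer runs. Counted by locus and not by peak, 98 of 655 isolated sites (15.0%) reached the strongest decile, against 70 of 347 runs of 2 (20.2%, interval 16.1 to 24.8), 41 of 183 runs of 3 (22.4%, interval 16.6 to 29.1) and 87 of 259 longer runs (33.6%, interval 27.9 to 39.7). A run counts here if any of its peaks reaches the decile, so its share is larger by construction the more peaks it holds. The isolated peaks, with a median score of 331 and a median width of 1017 bp, lay between the 789 strongest members of all runs, at 576 and 1309 bp, and the remaining 1833 peaks, at 173 and 911 bp. The runs were split by score, and width goes with score. This order thus follows in part by construction, and nothing is read from it.

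**Figure D5:**
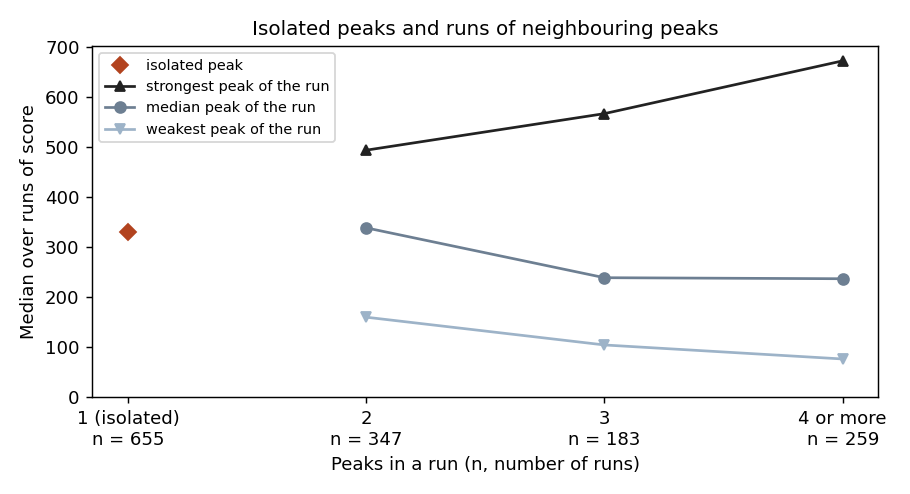
Median score (vertical axis) of isolated peaks and of the strongest, the median and the weakest peak of runs of 2, 3 and 4 or more peaks linked by midpoints within 10 kb (horizontal axis, n is the number of runs). The isolated peaks, at 331, lie below the strongest members (494 to 672) and above the weakest (160 to 76.3), an order that follows in part by construction. The values for the median peak of a run are 338, 239 and 237.

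The wider surroundings differed among isolated peaks. Within 50 kb of the midpoint, 101 isolated peaks had no other peak and 59 had 8 or more. The median score was 223 with 0 peaks in that window, 280 with 1, 301 with 2, 382 with 3, 342 with 4, 542 with 5, 381 with 6, 297 with 7 and 326 with 8 or more. The median width was 871 bp with 0 and 1267 bp with 5. The 78 isolated peaks with 5 others within 50 kb included 21 of the strongest decile (26.9%). This was the highest share of these classes, picked out after the values were seen. The rest ran from 9.20% to 20.3%, beside 15.0% of all isolated peaks and 10.01% of all autosomal peaks. No steady order was seen from 3 peaks upwards.

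The number of isolated peaks varied along the arms. Over 93 complete bins of 1 Mb, each bin held between 1 and 14 isolated peaks, with a median of 7. The variance of the count was 1.21 times its mean for isolated peaks and 4.73 times its mean for the other peaks. Both values follow in part from the rule, which spaces isolated peaks over 10 kb apart and gives each of the other peaks a neighbour within 10 kb, so nothing is read from their difference. The 31 bins with the fewest peaks of any kind held 149 isolated among 675 peaks (22.1%). The middle 31 held 242 among 1051 (23.0%) and the 31 with the most held 247 among 1505 (16.4%). Bins were grouped by their number of peaks, and crowding leaves fewer peaks over 10 kb from any other. These shares thus also follow in part by construction, and nothing is read from them. In each group of bins the isolated peaks had the higher median score, at 335 against 254 for the other peaks in the sparsest bins, 302 against 266 in the middle and 368 against 248 in the densest. The bin of 2L between 8 and 9 Mb and the bin of 2R between 17 and 18 Mb held 14 each, the highest counts.

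Next to the centromere, isolated peaks were frequent on 2R and 3L and weak by their medians. In the 1 Mb of each arm's peak span that faces the centromere, 28 of 69 peaks were isolated (40.6%, interval 28.9 to 53.1), against 627 of 3208 (19.5%, interval 18.2 to 21.0) on the rest of the arms. The 28 had a median score of 130 and a median width of 731.5 bp, whereas the 627 had 342 and 1026 bp. The other peaks of the same stretches had 229 and 893 bp, so here the isolated peaks had the lower median score. On 2R each of the 5 peaks of this stretch was isolated, with a median score of 70.56, and on 3L 8 of 13 were, with a median of 74.22. On 3R 9 of 34 (26.5%, interval 12.9 to 44.4) and on 2L 6 of 17 (35.3%, interval 14.2 to 61.7) were isolated, with medians of 202 and 181. These intervals include the shares on the rest of the arms, 18.8% on 3R and 17.9% on 2L. The highest score among the 28 was 1077.55, on 3L. The few other peaks of these stretches had median scores of 572 on 3L, 249.5 on 3R and 182 on 2L. Without these stretches, a setting also added with the values in view, the median scores were 342 for isolated peaks and 254 for the other peaks.

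In places isolated peaks followed one another. Of the 655, 279 (42.6%) had another isolated peak as their nearest neighbour. By the rule no other peak can have an isolated nearest neighbour, so the other peaks give no share to compare. The 655 isolated peaks stand beside 789 runs of other peaks, so they would often adjoin in any order. No random order was drawn, and nothing is read from this share or from the number of stretches below. These 279 had a median score of 288, and the 376 whose nearest neighbour belonged to a group had 369. An isolated peak outscored its nearest neighbour in 349 of 655 cases, or 53.3% (interval 49.4 to 57.2). Where the neighbour was not isolated this was so for 215 of 376 (57.2%), with median scores of 369 for the isolated peaks and 299 for their neighbours. Where the neighbour was itself isolated it was so for 134 of 279 (48.0%), with medians of 288 for these isolated peaks and 294 for their neighbours, a set in which a pair of peaks can count in both roles. The members fell into 369 uninterrupted stretches, of which 205 held a single isolated peak, 91 held 2 and 11 held 5 or more. The longest, of 9 isolated peaks, ran over 484 kb of 2R from 7257906 to 7741427, with scores from 60.17 to 912.22 and a median of 299. A stretch of 6 next to the centromere of 2R, from 75451 to 1242358, had a median score of 101, and a stretch of 5 at the end of 3L, from 23008814 to 23574023, had 65.35, with no score above 105.13. By contrast, 5 isolated peaks on 2R from 10298536 to 10414631 had a median of 576 and a highest score of 1455.52. These stretches were picked out after their values were seen.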

How the data were processed

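Bowtie and the BDGP5 build are named in the submitters' processing notes, and MACS as the peak caller in the file header; versions, the MACS threshold, how replicates 1 and 2 were combined and whether the input entered the calling are not stated in the labels or the file. The authors deposited 1 list with a start, an end and a score per peak. No scale is given for the score, so no ratios of it are printed. Starts were taken as counting from 0 and are printed counting from 1.

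Midpoints, widths, distances, medians, quartiles and shares were computed with Python 3.11.15, NumPy 2.4.6, pandas 2.3.3 and SciPy 1.17.1, and the code was checked on simulated data. Deciles are 10 equal groups of the autosomal peaks. Intervals are 95% exact binomial (Clopper-Pearson) intervals, which treat peaks as independent. No annotation or sequence of BDGP5 was used here, so sites are named by position.

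Named peaks are the 20 isolated peaks with the highest scores (10 of them with values), the 5 widest, narrowest and weakest, the 10 most remote and 5 on each side of the limit. The members and rules were chosen with earlier results of these data known. Alternatives were limits of 5000 and 20000 bp, distance between edges, joining peaks at most 500 bp apart, a minimum score of 269.74 and adding the X.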

Additional observations from a re-analysis of the deposited data

Results flagged for a closer look

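Outside the 4 autosomal arms, the X and chromosome 4, the list holds 12 peaks on heterochromatic and unplaced sequences, which the comparisons do not use. By the same rule 9 of these 12 were isolated, with a median score of 357 and a median width of 441 bp. No control level was analysed for them.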

How the results depend on the processing

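Over 8 alternatives to each of 6 shares, 29 of 48 values stayed within the main 95% interval. The share of isolated peaks moved with its definition by construction: 39.8% with a limit of 5000 bp, 9.95% with 20000 bp, 17.5% between edges, 25.7% with peaks joined up to 500 bp, 48.8% among scores of at least 269.74, and 27.0% of the list that leaves out other peaks with a midpoint within 2 kb. The share of isolated peaks scoring above the median of the others was 52.4% (interval 48.9 to 55.9) among scores of at least 269.74 and 51.9% (interval 48.0 to 55.8) against other peaks with no midpoint within 2 kb; both intervals include 50%, unlike the main one (54.1 to 61.8). Isolated peaks wider than the median of the others made up 58.7% with 5000 bp, 46.0% with 20000 bp, 45.2% with peaks joined and 41.4% against peaks with no midpoint within 2 kb. At equal score the shares were 46.9% with 5000 bp, 37.1% with 20000 bp, 37.6% between edges and 37.9% against peaks with no midpoint within 2 kb, against a main value of 41.8%. The strongest decile held 11.7% of isolated peaks both with 20000 bp (interval 8.38 to 15.6) and among scores of at least 269.74 (interval 9.52 to 14.1). Both intervals include 10.01%, the strongest decile's share of all autosomal peaks, unlike the main one (12.3 to 17.9). Against peaks with no midpoint within 2 kb the share was 12.8% (interval 10.4 to 15.6). The share above the median of peaks with 3 or more neighbours was 56.0% against peaks with no midpoint within 2 kb. The cause of these shifts was not tested. Leaving out the 1 Mb next to the centromere and the 2 kb comparison were added after seeing the data. No paired analysis was possible because both replicates stand in 1 list. Read depth is unknown, and sites scoring under 50.05 are outside the list, so an isolated peak may have weaker neighbours.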

Other observations

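The same rule applied to the X gave 143 isolated peaks among 731, or 19.6% (95% exact binomial interval 16.7 to 22.6), close to the 19.99% of the autosomal arms. Their median score was 359, against 297 for the other X peaks, and their median width was 820 bp against 840.5 bp. On chromosome 4, 15 of 26 peaks were isolated (57.7%, interval 36.9 to 76.6). Their median score was 122, against 71.38 for the other 11, with median widths of 442 and 420 bp. These differences were not tested.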
